A study of Mus musculus with 24 samples.

Results

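The 32 genes described here are homeostatic markers of Bergmann glia and astrocytes, the glial cells of the cerebellum that keep the extracellular space around neurons in order. They were chosen by name as a list of astroglial genes without reactive markers, and all 32 were found by symbol among the 43430 genes of the deposited count table. All 32 also passed the filter on low counts, which 15300 genes passed.

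RNA was measured in 24 mice aged about 7 weeks, with 1 library of whole cerebellum per mouse. Each of the 4 genotypes had 6 mice, of which 3 were male and 3 female. The control groups are labelled Cre control and NDI1 control and the knockout groups cKO+NDI1 and cKO, where NDI1 is a yeast NADH dehydrogenase that regenerates NAD+ without pumping protons. The labels name neither the deleted gene nor the Cre driver. From knowledge of the published study, and not from the labels or the deposited counts, the deleted gene is taken to be Ndufs4, a subunit of mitochondrial complex I, the Cre driver to be the Nestin promoter, which is active in the neural progenitors of neurons and glia, and the NDI1 transgene to be a conditional one in the Rosa26 locus. If so, the deletion could take place in Bergmann glia as well as in neurons, which the design does not separate. The comparisons ask how the glial genes differ with the knockout and whether they differ when NDI1 is present.

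Ndufs4 was at 134 ± 23.6 CPM (CPM, counts scaled by each library's normalised total; mean ± SD, n = 6) in Cre control, 143.7 ± 41.8 in NDI1 control, 95.39 ± 21.5 in cKO and 101 ± 15.1 in cKO+NDI1. The log2 difference between cKO and Cre control was -0.47 ± 0.16 (SE, adjusted p = 0.0939), and the ranges of the groups overlapped. Reads from the exons that a deletion leaves in place are still counted, so this is a weak check of the labels. Gt(ROSA)26Sor, the noncoding RNA of the Rosa26 locus, was at 35.65 ± 7.53 and 34.79 ± 8.14 CPM in Cre control and cKO against 7.014 ± 0.879 and 7.042 ± 1.35 CPM in NDI1 control and cKO+NDI1, which separates the libraries by their NDI1 label. Library totals ranged from 7584374 to 19785264 counts, with medians of 15874079 in Cre control, 15254777.5 in NDI1 control, 11547903 in cKO and 15281035 in cKO+NDI1.

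As background, Bergmann glia are the radial astrocytes whose processes run through the molecular layer and wrap the synapses of Purkinje cells. They clear glutamate, take up potassium, move water, couple through gap junctions and convert glutamate to glutamine, while other astrocytes of the granular layer and white matter do the same around granule cells and axons. Slc1a3, Fabp7, Hopx and Gdf10 are known as Bergmann glia markers of the cerebellum, whereas Aqp4, Gja1, Aldh1l1 and Sox9 mark astrocytes more widely. The libraries come from whole tissue, so fewer glial cells and less RNA per glial cell cannot be told apart in any value given here.

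All 32 members were detected in every library, the lowest single value being 9.909 CPM, for Tnc in a cKO library. Levels of different genes are compared here per length, as CPM per kilobase of gene length in Cre control. Sparcl1, a secreted matricellular protein, stood highest at 712 ± 65.7, followed by the receptor Gpr37l1 at 410.8 ± 50.6 and the protease inhibitor Cst3 at 342.7 ± 51.5. At the other end were the matrix protein Tnc at 1.302 ± 0.3, the growth factor receptor Fgfr3 at 3.329 ± 0.127 and the dicarboxylate transporter Slc13a3 at 4.596 ± 0.249 (SD, n = 6). The deposited length can exceed the span of the gene, so it counts some bases repeatedly. For Fgfr3 it is 29758 bases, on a gene from 33721724 to 33737068 whose longest coding transcript has 4245 bases. Genes with many transcripts therefore have understated levels on this scale, and the low place of Fgfr3 depends on that length. The order at the top depends on it too. Slc1a3, at 153.2 on this scale, has a deposited length of 13786 bases against a longest coding transcript of 4163. For Ndrg2, at 290.5, they are 4272 and 2103. The median within-group SD of log2 CPM was 0.149 over the members against 0.217 over all genes tested. Of the 32 members, 19 lay below the latter, which is itself a median, so this count alone does not set the members apart. Many members also stood high in level among all genes tested, and spread was not compared at like level. Slc1a3 had the smallest spread at 0.0729, next to Acsbg1 at 0.0759, Gja1 at 0.0795 and Clu at 0.0947. Tnc had the largest at 0.41, next to Slc1a2 at 0.35.

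In cKO against Cre control, 5 of the 32 members fell and 0 rose. A gene is called where its adjusted p from edgeR's quasi-likelihood test, over all genes tested, was under 0.05. Fabp7 fell by 0.97 ± 0.175 on the log2 scale, Tnc by 0.88 ± 0.207, Kcnj10 by 0.60 ± 0.162, Slc13a3 by 0.40 ± 0.0751 and Slc1a3 by 0.28 ± 0.0513 (SE, 6 against 6 libraries). The called share of members was 15.6%, where 4.87% of all genes tested were called in either direction and 1.81% were called lower. Of the 32 members, 29 had a negative log2 fold change (90.6%, against 51.9% of all genes tested) and the median was -0.10, against -0.01 over all genes. An unadjusted p under 0.05 was reached by 11 members (34.4%, against 18.5% of all genes). The other 27 members did not pass the test. Groups did not overlap for Fabp7 and Slc1a3, with every cKO library below every Cre control library, as for 1.07% of all genes tested. The plot of fold changes shows the members by role in the knockout comparisons without and with NDI1.

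**Figure D1:**
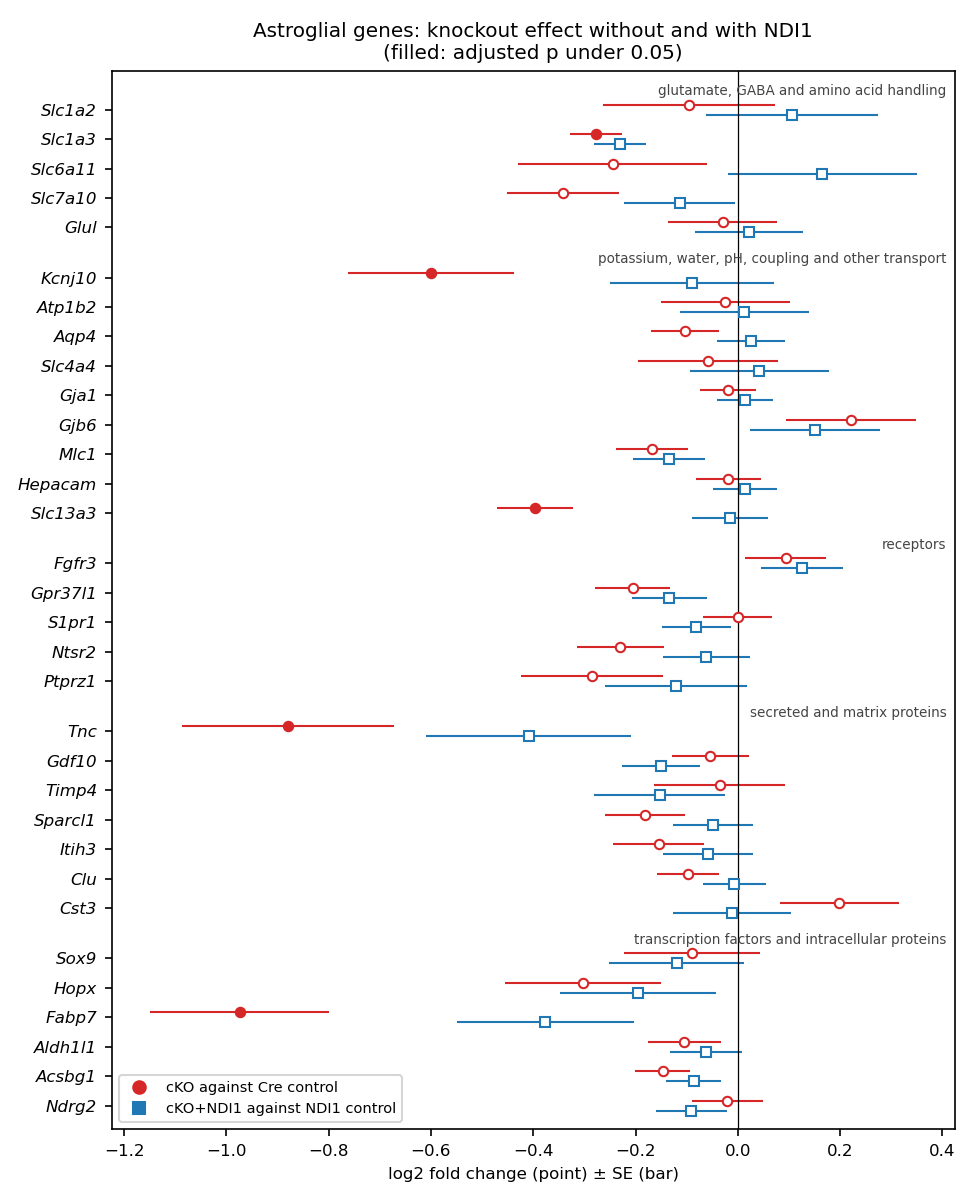
Log2 fold change (x axis, points, with SE as bars) of each of the 32 members in cKO against Cre control (red circles) and cKO+NDI1 against NDI1 control (blue squares), grouped by role; filled points passed the test. The 5 called members have filled red points from -0.28 for Slc1a3 to -0.97 for Fabp7, and no blue point is filled.

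The promoters of these 5 genes are shown because they are the members that fell. Each is the RefSeq sequence (build GRCm38.p6) of up to 250 bases before the annotated start, leaving out bases inside the gene as the count table delimits it, written 5′ to 3′ on the gene's strand. Capitals mark matches, on either strand, to motifs of factors active in astroglia: TTGGC for nuclear factor I, TGGGAA for RBPJ, the Notch effector, and TTCNNNGAA for STAT.
Slc1a3, chr15:8710808-8711057, minus strand: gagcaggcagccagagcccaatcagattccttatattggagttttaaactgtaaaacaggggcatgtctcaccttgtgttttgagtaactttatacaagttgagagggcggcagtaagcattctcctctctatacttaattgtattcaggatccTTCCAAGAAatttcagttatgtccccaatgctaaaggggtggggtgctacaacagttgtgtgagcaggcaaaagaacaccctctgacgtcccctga
Fabp7, chr10:57784673-57784880, plus strand: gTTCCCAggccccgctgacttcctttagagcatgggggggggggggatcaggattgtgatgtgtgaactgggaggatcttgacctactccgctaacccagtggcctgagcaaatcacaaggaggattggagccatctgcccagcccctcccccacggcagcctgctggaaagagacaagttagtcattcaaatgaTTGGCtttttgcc
Tnc, chr4:64047016-64047265, minus strand: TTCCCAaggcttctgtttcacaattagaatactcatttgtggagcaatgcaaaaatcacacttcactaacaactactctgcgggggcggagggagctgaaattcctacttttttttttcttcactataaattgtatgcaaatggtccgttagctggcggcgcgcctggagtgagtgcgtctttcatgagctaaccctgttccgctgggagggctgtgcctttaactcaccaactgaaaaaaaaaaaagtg
Slc13a3, chr2:165473231-165473447, minus strand: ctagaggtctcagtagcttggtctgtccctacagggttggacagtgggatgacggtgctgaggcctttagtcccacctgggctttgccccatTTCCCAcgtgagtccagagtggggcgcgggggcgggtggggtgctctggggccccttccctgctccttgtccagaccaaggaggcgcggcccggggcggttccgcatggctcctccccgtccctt
Kcnj10, chr1:172340960-172341209, plus strand: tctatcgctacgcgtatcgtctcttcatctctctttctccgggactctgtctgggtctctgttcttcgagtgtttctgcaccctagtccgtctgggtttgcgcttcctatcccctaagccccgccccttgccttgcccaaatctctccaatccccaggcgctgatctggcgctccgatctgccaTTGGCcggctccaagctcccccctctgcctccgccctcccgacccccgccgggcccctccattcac

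Fabp7, Tnc and Slc13a3 hold a match to the RBPJ letters, Fabp7 and Kcnj10 one to TTGGC, and Slc1a3 one to the STAT letters. A RefSeq promoter was used for 26 of the 32 members, and the search covered the full 250 bases before the start in each, also where fewer are printed. Of these, 13 held TTGGC, 9 TGGGAA and 3 TTCNNNGAA, where 41.9%, 21.5% and 7.14% of 27025 promoters of the same length did. The SOX letters ACAAAG and ACAATG, the CRE letters TGACGTCA and the NFI palindrome were found in 0 of the 26, and in 16.5%, 10.9%, 1.6% and 0.0407% of all promoters. A match describes the letters only.

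The genes of glutamate, GABA and amino acid handling all had negative log2 fold changes in cKO against Cre control (5 of 5, median -0.24), and Slc1a3 passed the test. Slc1a3 (GLAST, chromosome 15, 8634124 to 8710764) is the main glutamate transporter of Bergmann glia. In Cre control its libraries ran from 2029 through a median of 2082 to 2290 CPM, in NDI1 control from 2003 through 2143 to 2285, in cKO from 1668 through 1720 to 1909, and in cKO+NDI1 from 1643 through 1853 to 1938. Both control groups lay above both knockout groups without overlap. The decrease from Cre control to cKO was 17.5% (adjusted p = 0.00262), and from Cre control to cKO+NDI1 it was 13.1% (log2 -0.20 ± 0.0513, adjusted p = 0.0496). Against NDI1 control, cKO+NDI1 was 14.8% lower (log2 -0.23 ± 0.0513), with an adjusted p of 0.259, which did not pass. The difference between cKO+NDI1 and cKO was 0.07 ± 0.0513 (adjusted p = 0.748).

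Slc1a2 (GLT-1), the glutamate transporter of astrocytes in most brain regions, was spread widely in every group. Its libraries ran from 380.2 through a median of 600.3 to 850 CPM in Cre control, from 309.7 through 490.7 to 646 in NDI1 control, from 491.3 through 550 to 667.8 in cKO and from 437 through 465.1 to 679.8 in cKO+NDI1. All 4 groups overlapped, and the log2 difference of cKO from Cre control was -0.10 ± 0.168 (adjusted p = 0.838). Glul, the glutamine synthetase that converts the glutamate carried in by both transporters, ran from 902.2 through 1033 to 1137 CPM in Cre control, 760.5 through 965.7 to 1035 in NDI1 control, 804.8 through 947.4 to 1373 in cKO and 828.8 through 938.5 to 1054 in cKO+NDI1. Its groups overlapped as well, with a log2 difference of -0.03 ± 0.106 in cKO (adjusted p = 0.932). Slc7a10, a transporter of glycine, serine and alanine, had a log2 difference of -0.34 ± 0.109 (adjusted p = 0.0734), and the GABA transporter Slc6a11 one of -0.24 ± 0.184 (adjusted p = 0.53).

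Of the 9 genes of potassium, water, pH, coupling and other transport, 2 fell in cKO against Cre control and 0 rose, and the median was -0.06. Kcnj10 (Kir4.1, chromosome 1, 172341210 to 172374085), the inward rectifier that takes up potassium, ran from 180.1 through a median of 253.7 to 314.6 CPM in Cre control and from 121.7 through 207.9 to 281.6 in NDI1 control. In cKO it ran from 146.6 through 163.5 to 197.9, and in cKO+NDI1 from 154.7 through 175.5 to 251.3. Of the 6 cKO libraries, 5 lay below the lowest Cre control library, at 180.1, and M3, at 197.9, lay within the Cre control range. The decrease in cKO was 34% (adjusted p = 0.0314). This call was lost without any 1 of 9 libraries, which were M2, M3, F1 and F3 of Cre control and M1, M2, F1, F2 and F3 of cKO, with an adjusted p of at most 0.0831 and a log2 fold change between -0.69 and -0.54.

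Slc13a3 (NaDC3, chromosome 2, 165405028 to 165473230) carries sodium with dicarboxylates such as succinate and N-acetylaspartate. It ran from 39.55 through a median of 44.38 to 46.2 CPM in Cre control, 40.59 through 45.74 to 47.92 in NDI1 control, 28.32 through 32.35 to 41.34 in cKO and 41.97 through 44.12 to 49.3 in cKO+NDI1. The cKO libraries were the low ones, with M3 at 41.34 within the control range and the other 5 at or under 34.5. Slc13a3 fell by 24% in cKO (adjusted p = 0.00302) and was 35.4% higher in cKO+NDI1 than in cKO (log2 0.44 ± 0.0753, adjusted p = 0.0124). Against NDI1 control the log2 difference of cKO+NDI1 was -0.02 ± 0.074.

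Gja1 (connexin 43), the main gap junction protein of astrocytes, was among the members that varied least. It ran from 405.3 through a median of 430.7 to 448.8 CPM in Cre control, 343.9 through 401 to 432.4 in NDI1 control, 392.2 through 422.8 to 470.4 in cKO and 389 through 397.2 to 416.1 in cKO+NDI1. Aqp4, the water channel of astrocyte endfeet, ran from 674 through 748.9 to 802.8 CPM in Cre control, 602.9 through 703.5 to 829 in NDI1 control, 621.2 through 715.2 to 735.4 in cKO and 686.8 through 704.5 to 809.5 in cKO+NDI1. All groups overlapped for both genes. Their log2 differences in cKO against Cre control were -0.02 ± 0.055 for Gja1 and -0.10 ± 0.0667 for Aqp4 (adjusted p = 0.909 and 0.442). Among the other 5 genes, Gjb6 (connexin 30) had the only positive difference at 0.22 ± 0.127, and Mlc1, Slc4a4, Atp1b2 and Hepacam, which serve volume control, bicarbonate transport, the sodium pump and cell adhesion, lay between -0.17 and -0.02.

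**Figure D2:**
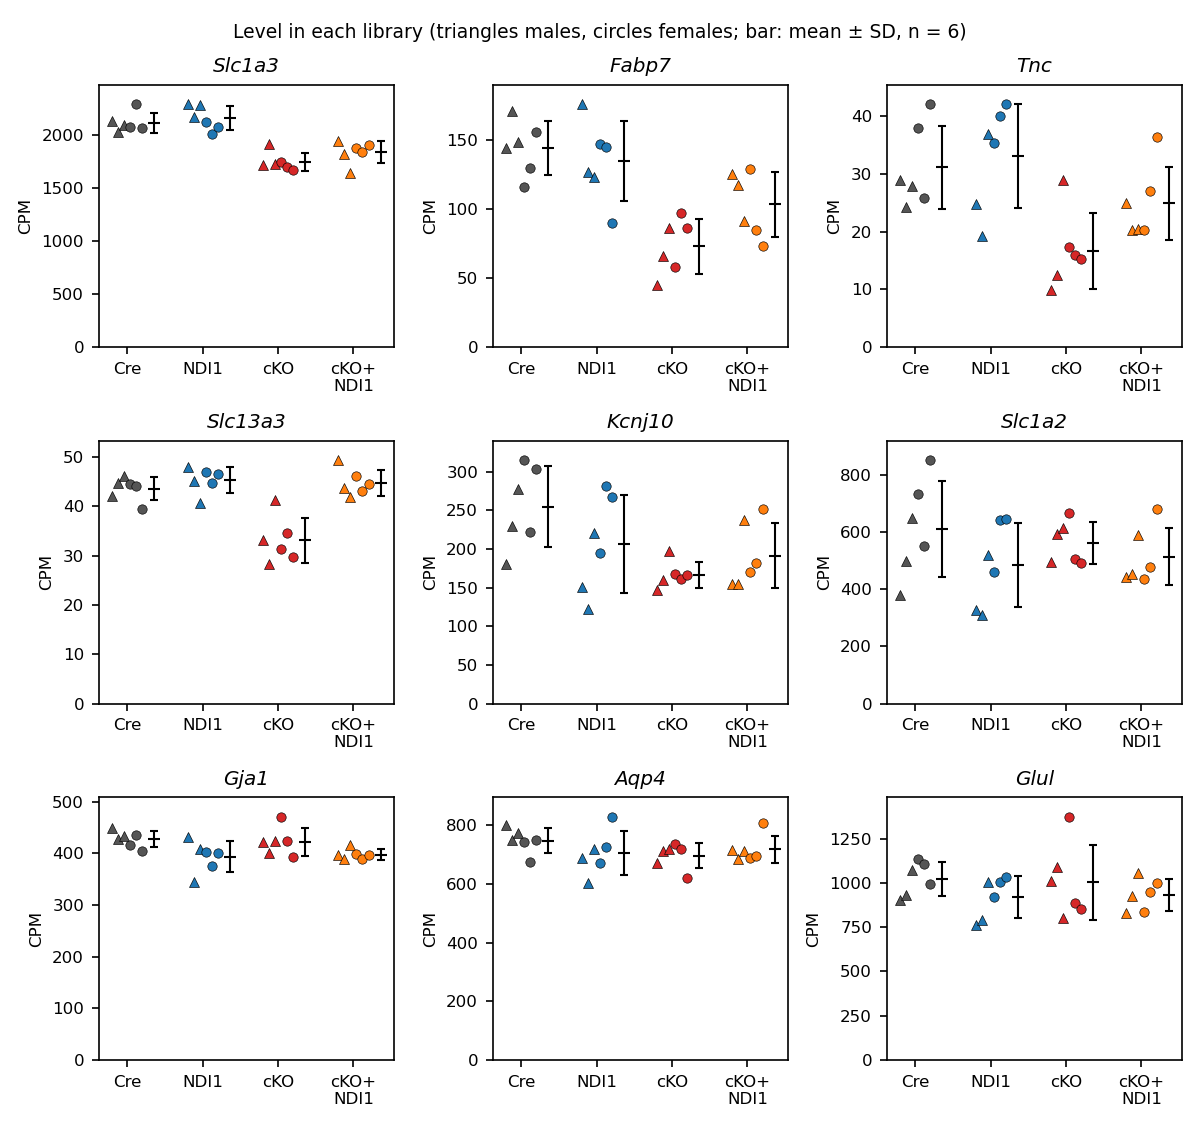
Level in CPM (y axis, from 0) of 9 members in each library of the 4 groups (x axis), males as triangles and females as circles, with mean ± SD (n = 6) beside each group. For Slc1a3 both knockout groups lie below both control groups, for Slc13a3 the cKO group alone is low, and Slc1a2, Gja1, Aqp4 and Glul overlap in all groups.

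None of the 5 receptors passed the test in cKO against Cre control, and 4 of 5 were negative (median -0.21). Gpr37l1, a G protein-coupled receptor of astrocytes, and Ntsr2, a neurotensin receptor, had log2 differences of -0.21 ± 0.0735 and -0.23 ± 0.0851 (adjusted p = 0.11 and 0.125). Ptprz1, a receptor phosphatase of the radial glial lineage, was at -0.29 ± 0.139 (adjusted p = 0.275). S1pr1, a receptor of sphingosine 1-phosphate, and Fgfr3 were at -0.00 ± 0.0671 and 0.09 ± 0.0799.

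Of the 7 secreted and matrix proteins, 6 were negative (median -0.10), and Tnc fell. Tnc (chromosome 4, 63959785 to 64047015) encodes tenascin C, an extracellular matrix protein of radial glia and immature astrocytes. It ran from 24.27 through a median of 28.46 to 42.17 CPM in Cre control, 19.34 through 36.1 to 42.09 in NDI1 control, 9.909 through 15.59 to 29.03 in cKO and 20.23 through 22.76 to 36.37 in cKO+NDI1. The cKO libraries were low except M3 at 29.03, and the other 5 were at or under 17.27. The decrease in cKO was 45.6% (adjusted p = 0.0144), and the difference of cKO+NDI1 from cKO was 0.55 ± 0.209 on the log2 scale (adjusted p = 0.409). Gdf10, a bone morphogenetic protein relative of Bergmann glia, Timp4, Sparcl1, Itih3 and Clu were between -0.18 and -0.04, and Cst3 was at 0.20 ± 0.116 (adjusted p = 0.385).

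The 6 transcription factors and intracellular proteins were all negative (median -0.13), and Fabp7 fell. Fabp7 (chromosome 10, 57784881 to 57788450), the brain fatty acid binding protein of radial glia and Bergmann glia, ran from 116.2 through a median of 146.3 to 171.5 CPM in Cre control and from 90.1 through 135.8 to 176.3 in NDI1 control. In cKO it ran from 44.88 through 76.16 to 96.88, and in cKO+NDI1 from 73.27 through 104.6 to 129.4. Every cKO library lay below every Cre control library, and the cKO+NDI1 libraries overlapped all 3 other groups. The decrease in cKO was 49.1% (adjusted p = 0.00211). The log2 difference of cKO+NDI1 was 0.50 ± 0.175 from cKO (adjusted p = 0.337), -0.38 ± 0.173 from NDI1 control (adjusted p = 0.998) and -0.48 ± 0.173 from Cre control (adjusted p = 0.193). Hopx, a homeodomain protein, was at -0.30 ± 0.153 in cKO against Cre control (adjusted p = 0.296), Acsbg1, an acyl-CoA synthetase, at -0.15 ± 0.0536 (adjusted p = 0.118), and Aldh1l1, Sox9 and Ndrg2 between -0.10 and -0.02.

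With NDI1 added to the knockout (cKO+NDI1 against cKO), 1 member was called (3.12%), where 0.209% of all genes tested were: Slc13a3, which rose. All its cKO+NDI1 libraries lay above all its cKO libraries, as for 0.516% of all genes. The members were divided in sign, with 18 positive and 14 negative and a median of 0.02 (all genes -0.01), and 6 had an unadjusted p under 0.05 (18.8%, against 8.56% of all genes). This comparison shares the cKO libraries with the one before it. For the 5 members that fell in cKO, the log2 values of cKO against Cre control and of cKO+NDI1 against cKO were -0.97 and 0.50 for Fabp7, -0.88 and 0.55 for Tnc, -0.60 and 0.19 for Kcnj10, -0.40 and 0.44 for Slc13a3, and -0.28 and 0.07 for Slc1a3.

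Between cKO+NDI1 and NDI1 control, 0 of the 32 members and 0 of all genes tested (0%) were called by edgeR. An unadjusted p under 0.05 was reached by 2 members, Slc1a3 and Fabp7 (6.25%, against 4.48% of all genes), and DESeq2 called 1 member, Slc1a3. Slc1a3 was also the 1 member without overlap between the groups, being lower in every cKO+NDI1 library, as for 0.124% of all genes. Of the members, 22 were negative and the median was -0.06. Between this comparison and cKO against Cre control, which share no library, 21 members were negative in both and 2 positive in both, so that 71.9% had the same sign, against 65.6% of all genes tested.

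Between cKO+NDI1 and Cre control, Slc1a3 was the 1 member called (3.12%, where 1.25% of all genes were), and the 1 member with every cKO+NDI1 library below every Cre control library (0.81% of all genes). Its call was lost in 22 of the 24 fits that left out 1 library, with an adjusted p of at most 0.145. Those were all 6 libraries each of Cre control, NDI1 control and cKO+NDI1, and M1, F1, F2 and F3 of cKO. Of the members, 26 were negative, with a median of -0.11, and 7 had an unadjusted p under 0.05 (21.9%, against 13.5% of all genes). In NDI1 control against Cre control, 0 members were called (0.00654% of all genes), 2 members had an unadjusted p under 0.05 (6.25%, against 9.2% of all genes), and DESeq2 called 0. The lowest adjusted p was 0.383, for Hepacam at -0.17 ± 0.0631.

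The interaction of knockout and NDI1, which tests whether the knockout's difference changed with NDI1, was called for 0 members and for 0% of all genes by edgeR, and DESeq2 called 0 members. An unadjusted p under 0.05 was reached by 3 members (9.38%, against 5.18% of all genes), all positive: Slc13a3 at 0.38 ± 0.105 (adjusted p = 0.582), Fabp7 at 0.60 ± 0.245 (adjusted p = 0.897) and Kcnj10 at 0.51 ± 0.228 (adjusted p = 0.94). Over the members 25 of 32 were positive (21.9% negative, against 51.5% of all genes tested) and the median was 0.07, against -0.00 over all genes. The interaction subtracts the difference of cKO from Cre control, in which 29 of the 32 members were negative. Positive values are therefore favoured in advance, also for the 3 named members, and are not a separate test of a change with NDI1. For Slc1a3 the interaction was 0.05 ± 0.0726 (adjusted p = 1).

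Between males and females 0 members were called, where 0.085% of all genes were, DESeq2 called 0 members, and the lowest adjusted p was 0.291. An unadjusted p under 0.05 was reached by 8 members (25%, against 16.9% of all genes): Slc1a2, Kcnj10, Atp1b2, Hepacam, Tnc and Sox9 lower in males, by log2 values from -0.30 for Tnc to -0.11 for Hepacam, and Cst3 and Hopx higher at 0.19 and 0.24. With the axis of variation described further on as a covariate, the log2 values of these 8 members lay between -0.16 for Sox9 and 0.04 for Slc1a2, with Tnc at 0.00, Cst3 at -0.01 and Hopx at -0.04. The knockout's difference in males minus that in females was called for 0 members and 0% of all genes, and DESeq2 called 0 members. An unadjusted p under 0.05 was reached by 5 members (15.6%, against 20.6% of all genes). Of these, Sox9, a transcription factor of astroglia, was at 0.71 ± 0.232, Slc4a4 at 0.60 ± 0.254 and Ptprz1 at 0.56 ± 0.263, whereas Hopx was at -0.69 ± 0.24 and Cst3 at -0.48 ± 0.19 (lowest adjusted p 0.21). With the same covariate the values were 0.59 for Sox9, 0.16 for Slc4a4, 0.07 for Ptprz1, -0.28 for Hopx and -0.16 for Cst3, with adjusted p of at least 0.471. In males alone 1 member fell in cKO against Cre control, Fabp7, and in females alone 4 did, Slc1a3, Kcnj10, Slc13a3 and Tnc, where 0.247% and 2.38% of all genes were called. The sexes were not shown to differ by that count, since the difference itself was not called for any member.

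Libraries of a group differed from mouse to mouse along a pattern that ran through all genes, and some members followed it. The first principal component of the within-group deviations of the 15268 tested genes that are not members, called the axis here, held 36.9% of the within-group variance. A gene's correlation with the axis rose with the length of its longest coding transcript (Spearman's rho 0.74 across 14040 genes, which are not independent replicates) and hardly with its GC content (rho -0.10). The axis was oriented so that long transcripts are positive. The 6 members Slc1a2, Atp1b2, Ptprz1, Kcnj10, Slc4a4 and Sparcl1 had a Pearson r with the axis of at least 0.8 over the 24 libraries, as did 16.5% of all genes tested. At the other end, Ntsr2, Mlc1, Hopx, Timp4 and Cst3 had an r of -0.8 or below, as did 15.5% of all genes.

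The correlation was 0.975 for Slc1a2 and -0.93 for Cst3 (Spearman's rho 0.965 and -0.925; permutation within groups, two-sided, p = 1e-05 each, the smallest that 100000 permutations can give; adjusted over 32 members 3.2e-05 for r and 4.57e-05 for rho). Without the 2 libraries farthest out, M1 and M2 of NDI1 control, the values were 0.966 and -0.902. Over all pairs of members the median correlation was 0.106. The median transcript length was 6669 bases in the positive set and 1524 in the negative set. Some members left that order: Atp1b2 and Sparcl1 have transcripts of 2842 and 2759 bases and stood at 0.973 and 0.843, while Timp4, at 5496 bases, stood at -0.929. The count table gives Timp4 a length of only 1416 bases, shorter than that transcript. It gives Atp1b2 one of 9121, longer than its transcript, though this length can count bases repeatedly. The places of Timp4 and Atp1b2 outside the order therefore depend on the length used. Slc1a3, Slc13a3, Gja1, Gjb6, Gdf10, Itih3 and Clu lay between -0.26 and 0.09.

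**Figure D3:**
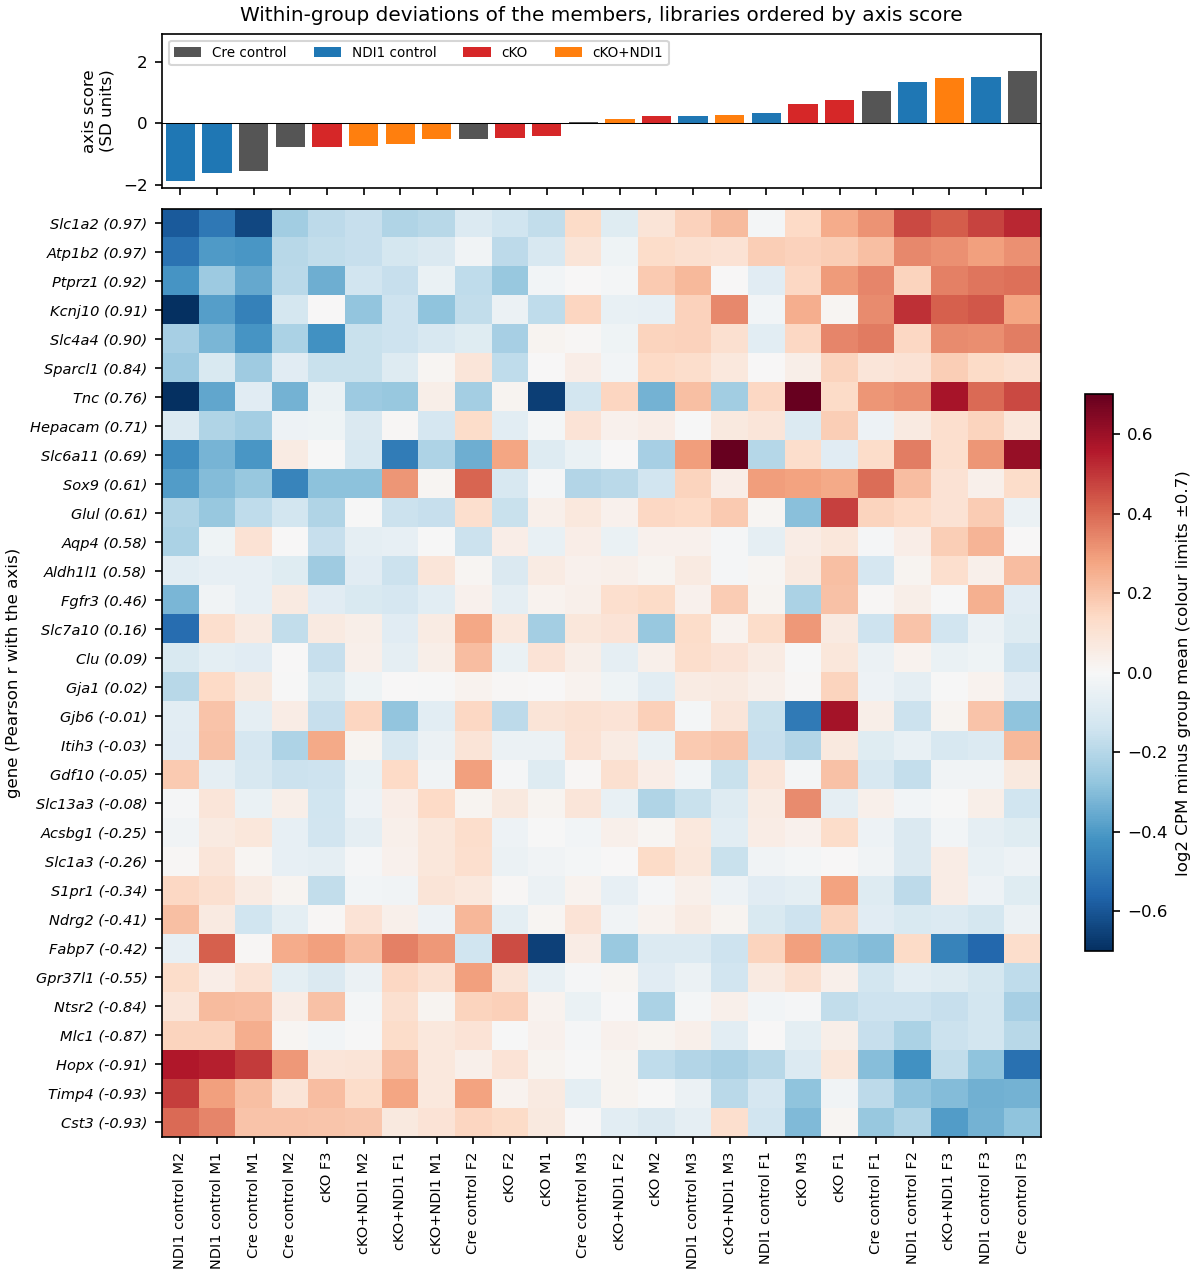
Deviation of each member from its group mean (colour, log2 CPM) in the 24 libraries, ordered from left to right by axis score, shown as bars above; members are ordered by Pearson r with the axis. The top rows, led by Slc1a2 at 0.97, change from low to high along the libraries, and the bottom rows, ending with Cst3 at -0.93, change the other way.

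**Figure D4:**
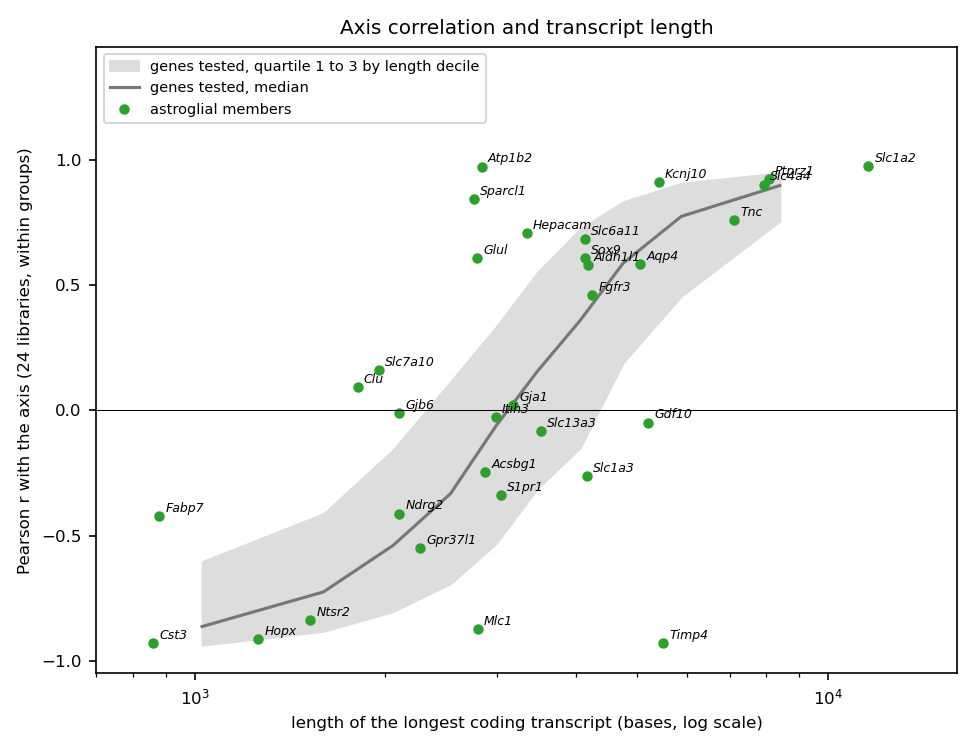
Pearson r with the axis (y axis, 24 libraries) against the length of the longest coding transcript (x axis, bases, log scale) for the 32 members as points, with the median and quartiles of all genes tested by length decile. The median of all genes rises from -0.863 in the shortest decile to 0.897 in the longest, and Atp1b2, Sparcl1, Glul, Mlc1 and Timp4 are among the members outside the band of their length. Timp4 and Atp1b2 are plotted at 5496 and 2842 bases, while their lengths in the count table are 1416 and 9121.

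The genotype groups differed in mean axis score by less than their spread: the mean was 0.18 in Cre control, -0.311 in NDI1 control, 0.196 in cKO and -0.0652 in cKO+NDI1, with SDs between 0.629 and 1.43. It was lower in males than in females, at -0.498 ± 0.927 against 0.498 ± 0.885 (SD, n = 12 each). By group, males and females were at -0.572 and 0.932 in Cre control, -1.38 and 0.759 in NDI1 control, 0.345 and 0.0468 in cKO, and -0.384 and 0.254 in cKO+NDI1 (n = 3 each). The 6 members of the positive set were all lower in males and the 5 of the negative set all higher. In the knockout's difference in males minus females the 6 were all positive (median 0.48) and the 5 all negative (median -0.29). The axis was computed from deviations from genotype group means, which leave sex in, and these 11 members were chosen by their r with it. Their signs by sex, and in the knockout's difference by sex, therefore largely follow from that choice. They are not a separate test of a difference by sex. With the axis score as a covariate, the difference of males from females was between 0.02 and 0.11 in the 6 and between -0.11 and -0.01 in the 5, so that each of the 11 had the opposite sign, and the lowest adjusted p over all members was 0.134.

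With the axis score as a covariate, an alternative chosen after the data were seen, 14 members were called in cKO against Cre control instead of 5 (43.8%, where 21% of all genes were then called). The 5 stayed called, and added as lower were Slc7a10, Mlc1, Gpr37l1, Ntsr2, Ptprz1, Sparcl1, Hopx and Acsbg1, and as higher Cst3. In this comparison Kcnj10 was then at -0.59 ± 0.0774 and Ptprz1 at -0.29 ± 0.0489, close to their values without the covariate and with a smaller SE. The axis was computed from within-group deviations of these same libraries, so a smaller SE is built in for members that follow it. Slc7a10, with an r of 0.16, hardly followed the axis, and its SE of 0.113 was not smaller than without the covariate. The adjusted p also depends on the results over all genes, of which 21% were called instead of 4.87%. The added calls are therefore not independent evidence. With this covariate 4 members were called in cKO+NDI1 against cKO, Slc13a3, Ntsr2 and Tnc higher and Cst3 lower (12.5%, against 2.79% of all genes), and in cKO+NDI1 against NDI1 control 1 (3.12%, against 0.314%), Slc1a3 at -0.23 ± 0.0422 (adjusted p = 0.0114).

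In cKO against Cre control 4.87% of all genes tested were called, and 1.81% were called lower. Of 73 other astroglial genes, 7 fell and 3 rose, with a median of -0.07 and 45 negative. Among those that fell were Mfge8, a secreted bridge to phagocytes, from 104.6 to 73.42 CPM (log2 -0.51 ± 0.0784, adjusted p = 0.000706), and Grm3, a metabotropic glutamate receptor of astrocytes (log2 -0.35 ± 0.0651, adjusted p = 0.00278). Prodh, the proline dehydrogenase of mitochondria, rose from 19.7 to 29.33 CPM (log2 0.57 ± 0.0942, adjusted p = 0.00099), and Ttyh1, a membrane protein of astroglia, rose by 0.25 ± 0.0491 (adjusted p = 0.00358). Genes of reactive astrocytes went the other way: of 34 tested, 5 rose and 0 fell, 30 were positive and the median was 0.24. The smallest p were those of Timp1, C4b, Cxcl10 and Emp1, with C4b, a complement component, going from 6.45 to 11.37 CPM (log2 0.81 ± 0.179, adjusted p = 0.0101). Timp1 and Cxcl10 were low, with group means of at most 1.414 and 2.257 CPM. The medians in cKO+NDI1 against NDI1 control were -0.03 for the other astroglial genes and 0.15 for the reactive ones, with 0 called in each.

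Summed over the 32 members, the level was 14790 to 16630 CPM in Cre control, 14550 to 15640 in NDI1 control, 13410 to 15800 in cKO and 13920 to 14910 in cKO+NDI1. Some markers of other cells were called in cKO against Cre control, where 4.87% of all genes tested were. In a list of 12 or 15 genes, 1 called gene is not far above that share. Of 12 Purkinje cell genes 2 fell in cKO, among them Slc1a6, a glutamate transporter of these neurons (log2 -0.34 ± 0.0637, adjusted p = 0.00267). Of the list, 9 genes were negative and 3 positive. Its summed level was 11820 to 12740 CPM against 13070 to 13740 in Cre control, without overlap. That sum leans on its highest genes, Car8 and Itpr1, whose means went from 3647 to 3182 and from 2887 to 2373 CPM. Of 12 endothelial genes 2 rose, Ctla2a and Pecam1, with sums of 417.8 to 481.9 against 368.2 to 412.4, and 4 of the 10 genes for smooth muscle and pericytes rose, with sums of 446.6 to 494.4 against 362.8 to 442. Of 12 granule neuron genes 1 rose (Grin2c, sums 6727 to 7582 against 6492 to 7595) and of 15 oligodendrocyte genes 1 rose (Mal, sums 12530 to 19600 against 13200 to 15380). Of the 12 microglial, 9 oligodendrocyte precursor and 11 meningeal and choroid plexus genes 0 were called. No marker on these lists was at 0 in a group mean. In cKO+NDI1 against cKO, 5 of the 15 oligodendrocyte genes fell, led by Mobp and Tspan2, where 0.209% of all genes tested were called. The sums of the list were 9985 to 12000 against 12530 to 19600. Without the knockout the list was lower with NDI1 too, with sums of 10540 to 13170 in NDI1 control against 13200 to 15380 in Cre control. All 15 of its genes were negative between these controls (median -0.19, 0 called). The part of these lists in the members' values was not tested.

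**Figure D5:**
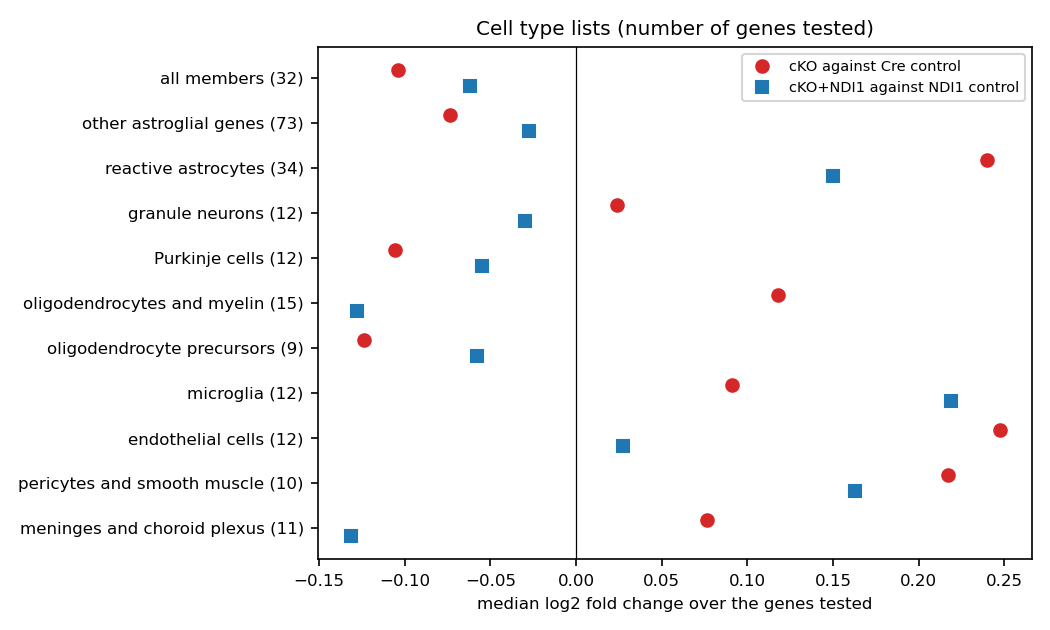
Median log2 fold change (x axis) over the tested genes of each cell type list, with their number in brackets, in cKO against Cre control (red circles) and cKO+NDI1 against NDI1 control (blue squares). The members, at -0.10 and -0.06, lie left of 0 and the reactive astrocyte genes, at 0.24 and 0.15, right of it.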

How the data were processed

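Polyadenylated RNA was sequenced from whole cerebellum. The submitters' processing notes list STAR, HTSeq, Trimmomatic and bcl2fastq and the build mm10; versions and the strand setting are not given in the sources used here. The deposited file holds raw whole-number counts per gene from the authors, with gene positions and length in other columns; 0 per-library columns were left unused. Symbols, transcript length and GC content were joined by Ensembl ID from GENCODE, and promoters came from RefSeq. Genes that overlap on the other strand cannot be told apart if strand was not used.

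Counts were normalised with TMM, filtered with filterByExpr by group (15300 genes left) and tested with edgeR 4.0.16 (quasi-likelihood F test, robust, R 4.3.3) in 1 fit of all 24 libraries with group and sex. The Benjamini-Hochberg adjustment ran over the whole table within a comparison, with a threshold of 0.05. Fold changes are log2, their SE is the fold change divided by the square root of F, and log2 CPM used a prior count of 2. The difference by sex used a fit with group by sex.

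The 32 members, the 10 other lists and the tests were chosen with earlier results of these data known. Values in every group are given for members called in a genotype comparison and for Slc1a2, Slc1a3, Fabp7, Gja1, Aqp4, Glul and Kcnj10; all others are given by role, singled out after their values were seen. Alternatives were other size factors, DESeq2 1.42.0, limma-voom (limma 3.58.1), no filter, a replicate block, fewer libraries, thinned counts, a surrogate variable (sva 3.50.0), length offsets and the axis covariate. The fit was tested on simulated counts. No 2 libraries of a group were copies (chi-square per degree of freedom at least 4.67 in 60 pairs). The labels call the mice biological replicates and name no batch. The result of 1 gene of the cell type lists is not reported here.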

Additional observations from a re-analysis of the deposited data

Results flagged for a closer look

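Within the 128 sets of 6 libraries formed by the 32 members and 4 groups, 5 libraries stood far from the other 5 of their group by Dixon's test, which flags about 1 set in 20 by chance. Slc1a3 was at 1909 CPM in cKO M2, against 1668 to 1746 in the other cKO libraries. S1pr1 was at 274.6 CPM in cKO F1, against 200 to 227.1. In cKO+NDI1, Aqp4 was at 809.5 CPM in F3, against 686.8 to 717.4, Ptprz1 was at 276.9 CPM in the same library, against 194.2 to 217.7, and Gja1 was at 416.1 CPM in M3, against 389 to 398. The decrease of Slc1a3 in cKO passed the test without M2 as well.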

How the results depend on the processing

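In cKO against Cre control, Slc1a3, Slc13a3, Tnc and Fabp7 kept their calls in all 24 fits that left out 1 library. Of the 13 other settings Slc1a3 and Slc13a3 lost theirs with males only, Fabp7 with females only, Tnc with males only and with the groups of the comparison only, and Kcnj10 with males only and with no filter. The count of 5 was 1 with males only and 14 with 1 surrogate variable or the axis covariate. In cKO+NDI1 against cKO, the count of 1 was 0 with the groups of the comparison only, males only or females only, 5 with 1 surrogate variable and 4 with the axis covariate, and 1 to 2 when 1 library was left out (2 without cKO M3). In cKO+NDI1 against NDI1 control, the count of 0 was 1 with DESeq2, 1 surrogate variable or the axis covariate. In cKO+NDI1 against Cre control, the count of 1 was 0 with library size alone, no filter, the replicate block, the groups of the comparison only, males only, females only, thinned counts and length offsets, 7 with 1 surrogate variable, 6 with the axis covariate, and 0 to 1 when 1 library was left out; the median was -0.184 with females only. In NDI1 control against Cre control, the count of 0 was 1 with 1 surrogate variable or the axis covariate (Slc1a2). The median of the knockout's difference in males minus females was -0.0447 with the axis covariate, against 0.0377. Fits by sex or by comparison hold fewer libraries; otherwise the cause was not tested. Over all genes, the 745 calls of cKO against Cre control were 263 with its groups only, 38 with males only, 364 with females only, 425 with no filter, 1157 with DESeq2 and 3213 with the axis covariate.

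With the replicate block in place of sex, 6 members were called in cKO against Cre control, Slc7a10 being added. Over 36 pairs of same-numbered libraries the correlation of their deviations was mixed, from -0.402 to 0.506: 19 were over 0.1, and a library correlated best with its own number in 15. Not every pair was over 0.1, so the numbers were not taken to pair the libraries. Depth limits cKO most by its median library total of 11547903, while the smallest total, 7584374, was that of cKO+NDI1 F3.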
